A study of Bos indicus with 12 samples.

Results

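The last 1 Mb of each bovine autosome, on the side of the telomere, held 42967 of the 629700 autosomal cytosines of the table (6.82%) and of 635469 cytosines in all. A cytosine belonged to it if its start lay above the largest covered start of its autosome minus 1 Mb, so the members were chosen by position and not by any methylation value. The 29 regions, on BTA1 to BTA29, made up 1.17% of the covered autosomal span. They held from 42 cytosines on BTA15 to 5662 on BTA17, with a median of 1291. BTA1, BTA7, BTA13, BTA15, BTA27 and BTA28 had fewer than 300 cytosines each, so their means rest on few sites. The largest covered start stood in for the chromosome end, since the table gives no chromosome lengths.

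Cattle autosomes are acrocentric: the centromere lies near the first base of the assembled sequence and the telomere of the long arm near the last. DNA methylation in mammals is placed mainly on cytosines followed by guanine (CpGs). CpG islands at promoters are mostly unmethylated, while CpGs of gene bodies, intergenic DNA and repeats are mostly methylated. The DNA next to the telomere repeats is rich in G and C on many mammalian chromosomes, and its methylation by the DNA methyltransferases is known to affect telomere length and recombination.

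*Longissimus thoracis* muscle DNA of 12 Nelore steers (*Bos indicus*) was measured by reduced representation bisulfite sequencing (RRBS), in which the enzyme MspI cuts DNA at CpG-containing sites and bisulfite leaves methylated cytosines to be read as cytosine. The Tough group (6 animals) had higher shear force, the force needed to cut a steak, and the Tender group (6 animals) lower shear force. The paper chose the animals by ranking their estimated breeding values for shear force, with different sires within each group. All 12 animals were untreated, came from the extremes of 1 population and were kept on the same feedlot rations. The labels give the shear force at 7 days after slaughter and the paper's text gives a later day. Muscle DNA holds all cell types of the sample, and with no expression in the table neither the muscle identity nor the share of each cell type could be checked. Summed over all cytosines, the scaled coverage of an animal was 18399401 to 23470740, of which 1169929 to 1489690 fell in the last 1 Mb. A read over several cytosines counts once for each, so these sums are not numbers of reads. The median coverage of a cytosine was 24 to 32 scaled reads per animal in the last 1 Mb and 25 to 33 in the rest. Bisulfite conversion of the spike-in, a technical measure reported by the study, split the animals into 5 of higher conversion (3 Tough, 2 Tender) and 7 of lower conversion (3 Tough, 4 Tender).

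The ends of the autosomes were dense in covered cytosines. The last 1 Mb held more cytosines per Mb than the rest on 25 of the 29 autosomes, with a median ratio of 4.90. Its density was over 5 times that of the rest on 14 autosomes. BTA6 had the highest ratio, 21.7, with 2690 cytosines per Mb against 124 in its rest. BTA17 had the highest density, with 5662 cytosines per Mb against 282 in its rest, a ratio of 20.1. When each autosome was divided into stretches of 1 Mb from its end, the last stretch was the densest of its autosome on 12 autosomes and among the 5 densest on 17. It was sparser than the rest on BTA7 (ratio 0.687), BTA13 (0.426), BTA27 (0.241) and BTA15 (0.206). Every animal has the same cytosines, since only those covered in all 12 were kept, so density has 1 value per region and no test. It counts cytosines that RRBS covered, and the CpG content of the genome itself was not analysed here.

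**Figure D1:**
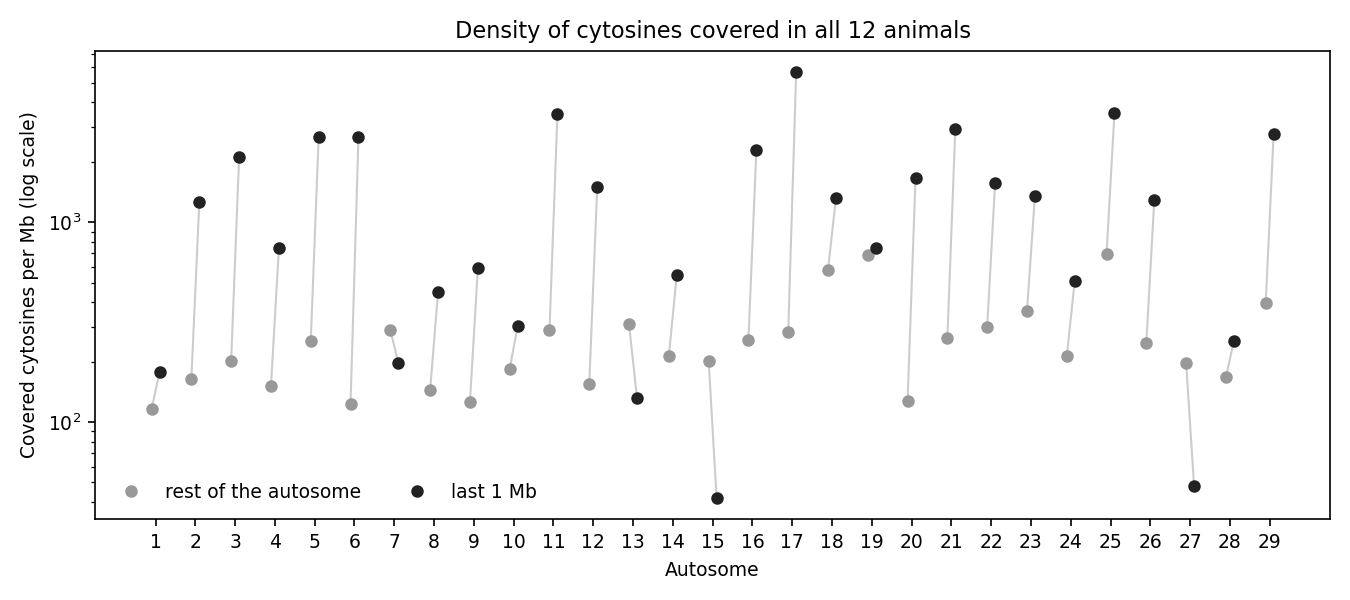
Covered cytosines per Mb (log scale) in the last 1 Mb (black) and in the rest (grey) of each of the 29 autosomes, with 1 value per region. The last 1 Mb lies above the rest on 25 autosomes and below it on BTA7, BTA13, BTA15 and BTA27.

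In every animal the last 1 Mb was more methylated than the rest of the same autosomes. With the 29 autosomes weighted equally, its methylation had a lowest value of 43.7%, a median of 44.7% and a highest value of 45.1% over the 12 animals. The rest had a lowest value of 28.4%, a median of 29.6% and a highest value of 29.8%. The lowest animal in the last 1 Mb thus lay above the highest in the rest, and the regions did not overlap. The means were 44.6% ± 0.43 and 29.4% ± 0.41 (SD, n = 12). The difference was 15.3 ± 0.13 percentage points (SD, n = 12), between 15.1 and 15.4 in every animal (exact two-sided sign-flip test over animals, p = 0.000488, the smallest it can give with 12 animals). This p speaks of the spread between animals over the same fixed regions, and says nothing on how autosomes vary: the 29 differences had an SD of 13.1 around a median of 13.7. Within the last 0.5 Mb alone the difference was 9.93 percentage points (exact sign-flip p = 0.000488).

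By autosome, the last 1 Mb was higher on 26 and lower on 3, and 26 of 26 and 3 of 3 passed the exact sign-flip test adjusted over the 29 autosomes (largest adjusted p = 0.00537, on BTA1). Weighted by coverage, BTA1 no longer passed (-0.201, exact sign-flip p = 0.681). Of all 1859 stretches of 1 Mb with at least 40 cytosines, 38.5% lay above the mean of the rest of their autosome, against 26 of the 29 last stretches (89.7%). The last stretch was in the upper part of its autosome, above the middle rank by methylation, on 28 autosomes, but was the most methylated of its autosome on BTA15 alone. Levels of the last 1 Mb ranged from 23.4% on BTA28 to 80.3% on BTA27, with an SD of 13.6 percentage points over the 29 autosomes. The rest ranged from 23.1% to 36.1%, with an SD of 3.26, but each of those values averages a far longer stretch with many more cytosines, so the 2 SDs are not compared. Among the 23 autosomes with at least 300 cytosines at the end, the levels ran from 30.6% on BTA29 to 60.7% on BTA4. The level of the rest and of the last 1 Mb had a Spearman rho of 0.18 over the 29 autosomes, a description over points that share the same libraries.

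**Figure D2:**
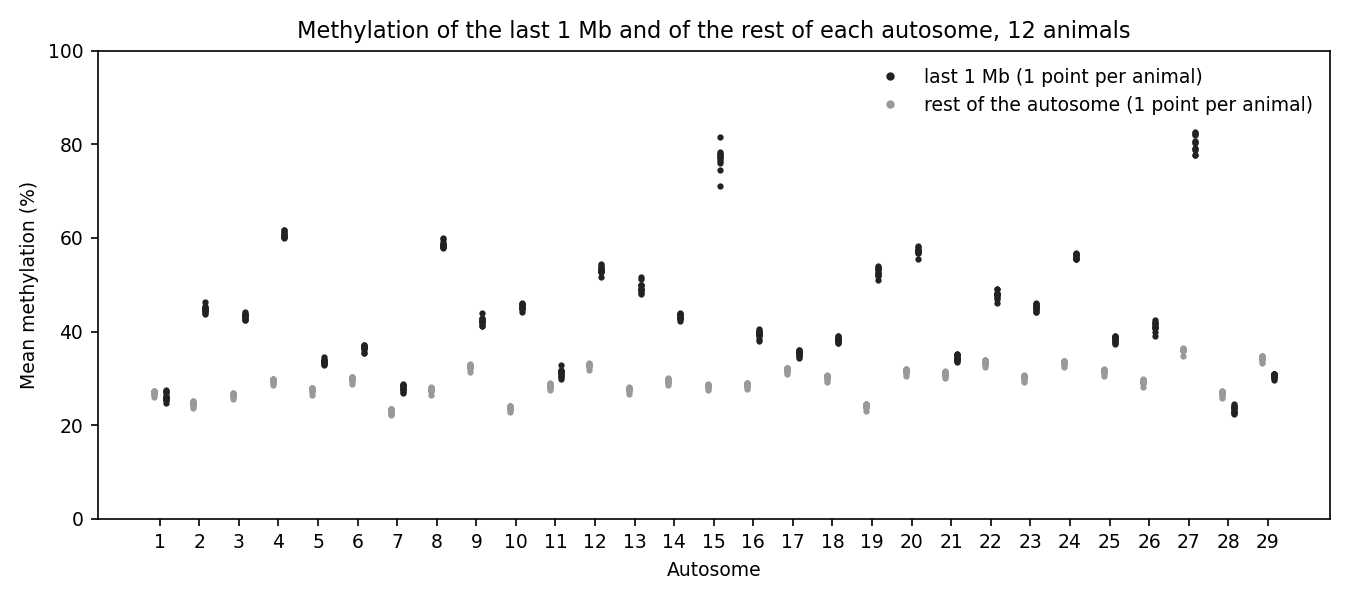
Mean methylation (%) in the last 1 Mb (black) and in the rest (grey) of each autosome, with 1 point per animal and 12 animals per region. The rest stays between 23.1% and 36.1% on average, while the last 1 Mb spans 23.4% to 80.3%, and it lies below the rest only on BTA1, BTA28 and BTA29.

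The 5 autosomes with the largest difference were BTA15, BTA27, BTA4, BTA8 and BTA19. BTA15 had 76.9% ± 2.46 (SD, n = 12) in its last 1 Mb, from 71.2% to 81.5%, which was 48.5 percentage points above its rest. BTA27 had 80.3% ± 1.79 (SD, n = 12), from 77.7% to 82.7%, a difference of 44.2. These are the sparsest ends, with 42 and 48 cytosines, and they nearly lack unmethylated sites: 0% and 2.08% of their cytosines had a mean under 5%, against 54.9% and 46.2% in their rest. BTA4 (743 cytosines) had 60.7% ± 0.57, a difference of 31.2. BTA8 (448 cytosines) had 58.7% ± 0.67, a difference of 31.0. BTA19 (749 cytosines) had 52.8% ± 0.90, a difference of 28.7, at a density close to that of its rest (ratio 1.09). The sizes of these 5 differences depended on how the regions were measured, while their direction did not change in any alternative run. BTA8 was higher by only 2.35 percentage points in the last 0.5 Mb and by 15.2 among cytosines with at least 20 reads in every animal. Among windows with 1 cytosine, the differences were 5.80 on BTA15, 17.6 on BTA27, 12.4 on BTA4, 5.97 on BTA8 and 16.6 on BTA19. High levels thus occurred at sparse ends and at denser ones, and the number of cytosines in the last 1 Mb had a Spearman rho of -0.38 with its level over the 29 autosomes.

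The 5 autosomes with the lowest difference were BTA29, BTA28, BTA1, BTA11 and BTA21. BTA29, whose end is dense with 2777 cytosines, had 30.6% ± 0.40 in the last 1 Mb (SD, n = 12) and 34.3% ± 0.49 in the rest. Its difference fell between -3.96 and -3.39 percentage points in the 12 animals, with a mean of -3.75. BTA28 (255 cytosines) had 23.4% ± 0.66 against 26.8% ± 0.44, a difference of -3.40, below 0 in 12 of 12 animals. BTA1 (178 cytosines) had 26.2% ± 0.85 against 26.9% ± 0.37, a difference of -0.76, and 2 of 12 animals went the other way. BTA11 (3488 cytosines) and BTA21 (2950 cytosines) were higher at the end by 2.74 and 3.41. For these 5 autosomes the sign itself depended on how the regions were measured. The sign of BTA1, BTA28 and BTA29 turned when the last 2 Mb were taken (10.6, 4.75 and 3.12 percentage points), that of BTA21 when the last 0.5 Mb were taken (-1.51), and that of BTA11 in windows with 1 cytosine (-3.68).

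The level did not peak at the very end. With the autosomes weighted equally, methylation was 38.7% ± 0.60 within 0.25 Mb of the last covered cytosine (SD, n = 12), 46.5% ± 0.49 from 0.25 to 0.5 Mb, 52.6% ± 0.70 from 0.5 to 0.75 Mb and 53.6% ± 0.51 from 0.75 to 1 Mb. The outermost 0.25 Mb minus the innermost was -14.8 percentage points on average, below 0 in 12 of 12 animals (exact two-sided sign-flip test, p = 0.000488) and on 22 of 29 autosomes. Single autosomes had as few as 7 cytosines in the outermost 0.25 Mb and 6 in the innermost. With all cytosines pooled, the same bins had 36.6%, 35.9%, 39.6% and 46.5%, with no rise over the first 0.5 Mb. Beyond the border the level with equal weights fell, to 46.3% from 1 to 2 Mb, 44.0% from 2 to 5 Mb, 35.3% from 5 to 10 Mb and 25.7% further in. Around the border itself, with all cytosines pooled, the 2397 cytosines in the 50 kb just inside averaged 39.4% and the 2926 in the 50 kb just outside averaged 37.0%.

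Compared with the stretches next to it, the last 1 Mb did not stand out by its level. Its difference from the stretch from 1 to 2 Mb was -1.73 percentage points (higher on 11 of 29 autosomes, lower in 12 of 12 animals). It differed from the stretch from 2 to 5 Mb by only 0.58 (higher on 13 of 29 autosomes and in 12 of 12 animals). It was 9.28 percentage points higher than 5 to 10 Mb (22 of 29 autosomes) and 18.9 higher than the cytosines over 10 Mb away (27 of 29 autosomes). Against the first 1 Mb of the same autosomes, which lies on the centromere side and averaged 41.8% ± 0.58 (SD, n = 12), it was higher by 2.82 (17 of 29 autosomes). For each of these 5 comparisons the exact sign-flip test gave p = 0.000488 (adjusted over the 5 comparisons, also 0.000488), and in each the animals moved the same way. The autosomes were divided against the 2 nearest stretches and the first 1 Mb, and mostly moved one way against the stretches beyond 5 Mb. The density of covered cytosines, in contrast, was highest inside the border, at 1265, 1489, 1702 and 1471 cytosines per Mb in the 4 outer bins, and fell to 1197, 668, 465 and 194 further in.

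**Figure D3:**
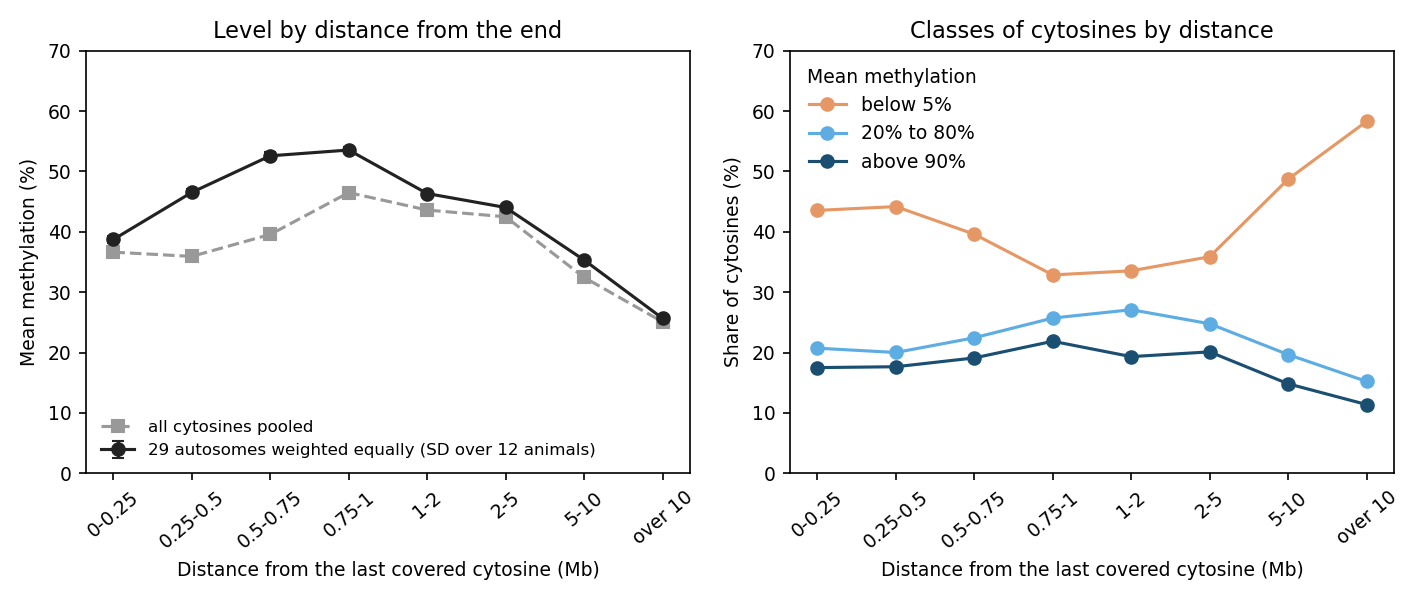
Left, mean methylation (%) by distance from the last covered cytosine (Mb), with the 29 autosomes weighted equally (black, bars are the SD over 12 animals and are about the size of the points) and with all cytosines pooled (grey). Right, the share of cytosines (%) with a mean below 5%, from 20% to 80% and above 90%: the first falls to 32.9% at 0.75 to 1 Mb and rises to 58.3% beyond 10 Mb.

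The higher mean went with fewer unmethylated cytosines and more of every class from 20% upward. In the last 1 Mb 39.9% of cytosines had a mean under 5%, against 53.5% in the rest. The share from 20% to 80% was 22.3% against 17.4%, that from 80% to 90% was 9.76% against 6.69%, and that above 90% was 19.1% against 13.1%. Cytosines under 5% were a smaller share at the end on 25 of 29 autosomes, and cytosines above 90% a larger share on 26.

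The difference was largest in windows with the most covered cytosines. Windows of 100 bp were divided by the number of covered cytosines they held, with the strands of a CpG counted separately. In windows with 5 or more cytosines, the last 1 Mb had 33.6% ± 0.46 and the rest 14.4% ± 0.36 (SD, n = 12). This was a difference of 19.3 percentage points on average, with 26 of 29 autosomes higher. In windows with 2 to 4 cytosines the levels were 58.6% ± 0.47 and 43.3% ± 0.49, a difference of 15.3, with 28 autosomes higher. In windows with 1 cytosine they were 61.7% ± 0.82 and 57.3% ± 0.71, a difference of 4.48, with 21 autosomes higher. The exact sign-flip test gave p = 0.000488 in each of the 3 classes, and whether the classes differ from each other in this was not tested. Among the densest windows, those with 10 or more covered cytosines, 78 of 817 (9.55%) had a mean above 80% in the last 1 Mb, against 377 of 10132 (3.72%) in the rest. Those 78 windows came from 21 autosomes. Most of the densest windows were unmethylated in both places, with 75.9% and 85.1% below 5%.

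The SD of a cytosine over animals was larger at the ends, where more cytosines had a middle level. The median SD of a cytosine over the 6 animals of a group was 5.58 percentage points in the last 1 Mb and 3.94 in the rest for Tough, and 5.58 and 3.91 for Tender. It was larger at the end on 24 of 29 autosomes in each group. Among cytosines with a mean from 20% to 80%, where percentages can vary most, the medians were 14.03 and 13.73 for Tough and 13.40 and 13.26 for Tender, and the SD was larger at the end on 17 autosomes for Tough and on 19 for Tender. The overdispersion factor, the spread between animals relative to that of counting reads, had a median of 1.75 at the end and 1.57 in the rest over all cytosines, but 2.47 and 2.60 in the class from 20% to 80%. Its medians were 0.773 and 0.787 below 5%, 2.39 and 2.39 from 5% to 20%, 2.37 and 2.50 from 80% to 90%, and 1.92 and 2.03 above 90%. From 80% upward the median coverage was 27 scaled reads at the end and 30 in the rest. Cytosines at 5% or less in some animal and at 95% or more in another were rare in both, 0.519% (223 cytosines) and 0.350% (2053 cytosines). The mean of the whole region varied more between animals at the end on 28 of 29 autosomes, with a median SD of 0.66 against 0.43 percentage points, from 0.40 on BTA29 to 2.46 on BTA15. The ends hold fewer cytosines than the rest, and over the 29 autosomes this SD had a Spearman rho of -0.43 with the number of cytosines in the last 1 Mb.

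Whether Tender and Tough animals differed at the ends was asked next. In the last 1 Mb, Tough animals had a lowest value of 43.7%, a median of 44.4% and a highest of 45.1%, and Tender animals 44.4%, 44.8% and 45.1%. The groups overlapped, and the Tough animals varied more than the Tender animals. The means were 44.4% ± 0.53 and 44.8% ± 0.23 (SD, n = 6 each). The Tender mean was higher by 0.36 percentage points, which did not pass a two-sided exact permutation test over the animals (p = 0.167, adjusted over 3 measures 0.25). In the rest the Tender mean was higher by 0.39 (permutation p = 0.106). The difference between the shifts was -0.028 percentage points (exact permutation p = 0.721), and no difference between the ends and the rest was detected. The shift in the last 1 Mb was 0.58 among the 5 animals of higher conversion (exact permutation p = 0.2) and 0.058 among the 7 of lower conversion (exact permutation p = 0.8). With so few animals, the exact test cannot go below p = 0.1 and p = 0.0286 in these splits. Without Tough animal 4 the shift was 0.49 (exact permutation p = 0.0498). With cytosines weighted by coverage it was 1.28 (exact permutation p = 0.0693).

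By autosome, the Tender mean of the last 1 Mb was higher on 25 autosomes and lower on BTA4, BTA7, BTA15 and BTA27, against 29 of 29 higher in the rest. The autosomes share the same animals and are not independent. The shifts ran from -2.30 on BTA27 to 1.09 on BTA26 at the ends, and from 0.23 to 0.51 in the rest. None of the 29 passed an exact permutation test after adjustment over the autosomes at the ends (smallest adjusted p = 0.126, 7 with an unadjusted p under 0.05) or in the rest (smallest adjusted p = 0.179, 1 unadjusted). The smallest unadjusted p at the ends was 0.00866, on BTA18 and BTA25. On BTA25, Tough animals had 37.4%, 37.9% and 38.6% (lowest, median, highest) and Tender animals 38.3%, 38.9% and 39.0%, and the groups overlapped slightly. On BTA27, with 48 cytosines, Tough animals had 79.0%, 82.1% and 82.7% and Tender animals 77.7%, 79.0% and 80.8%, an unadjusted p of 0.026 in the exact test. The shift at the end differed from that of the rest with an unadjusted p under 0.05 on 3 autosomes and with an adjusted p under 0.05 on none (smallest adjusted p = 0.188, exact permutation test).

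**Figure D4:**
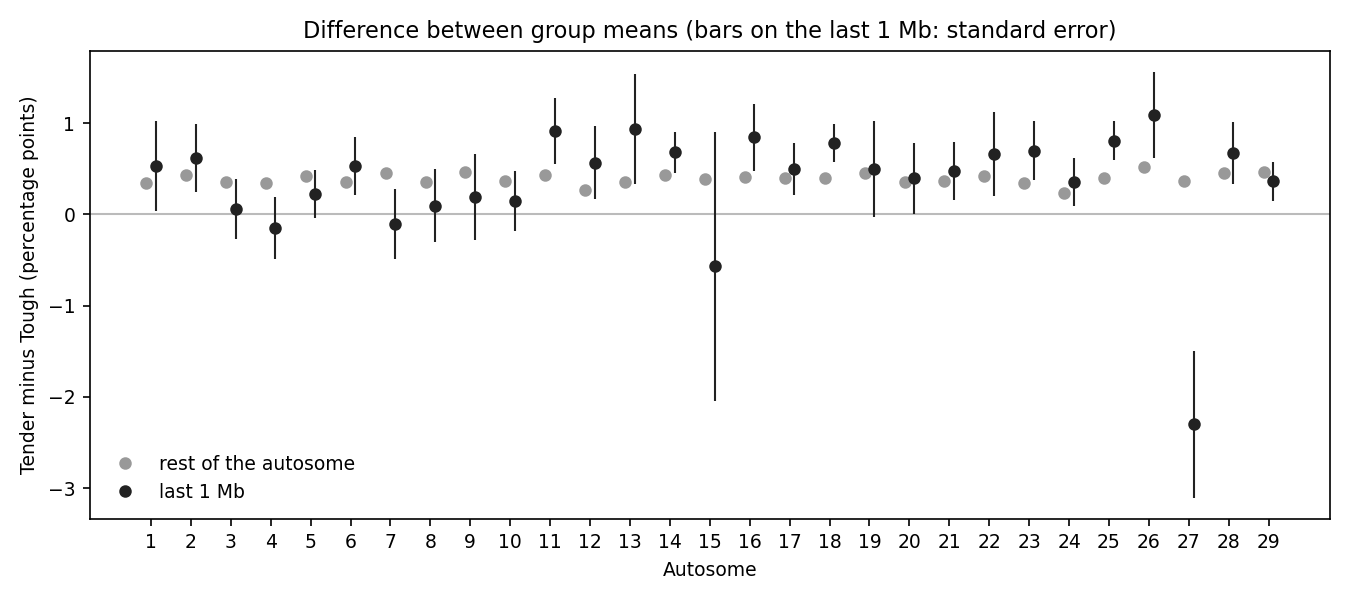
Tender minus Tough (percentage points) in the last 1 Mb (black, bars are the standard error of the difference, 6 animals per group) and in the rest (grey) of each autosome. The rest lies between 0.23 and 0.51 on all autosomes, while the last 1 Mb scatters from -2.30 on BTA27 to 1.09 on BTA26.

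Among the 5 classes of mean methylation, cytosines from 20% to 80% had the largest shift in percentage points. In the class from 20% to 80%, Tough animals had 52.5% ± 0.95 and Tender animals 54.0% ± 0.79 (SD, n = 6 each) in the last 1 Mb. The difference of 1.57 percentage points had an exact permutation p of 0.013, or 0.162 after adjustment over the 5 classes and 3 measures, and did not pass. In the rest the same class differed by 1.25 (exact permutation p = 0.0216), and the shifts of the ends and the rest differed by 0.33 (exact permutation p = 0.128). The shift in this class was 2.54 within the animals of higher conversion and 0.82 within those of lower conversion. Cytosines from 5% to 20% shifted by 1.30 in the last 1 Mb (exact permutation p = 0.0455, adjusted p = 0.211). Whether the classes differ in their shift was not tested.

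At single cytosines, differentially methylated cytosines (DMCs) had an adjusted p under 0.05 in a logistic regression on group and a difference of pooled methylation above 25%. Of all 635469 cytosines 121 were DMCs (0.019%), and 12 of the 42967 cytosines of the last 1 Mb were (0.0279%), with 107 in the rest (0.0182%). Of the 12, 7 were higher in Tender (0.0132% of all cytosines were) and 5 higher in Tough (0.00582%). The share of cytosines with an unadjusted p under 0.05 was 8.31% at the ends, near the 8.29% of all cytosines, and that with an adjusted p under 0.05 at any size was 0.128% against 0.135%. Within the class from 20% to 80%, 11 of 9574 cytosines at the ends were DMCs (0.115%) and 91 of 101976 in the rest (0.0892%). The calls depended on the test. With an F-test in place of the chi-square test, or with limma on log ratios, no cytosine of the table was a DMC (lowest adjusted p 0.806 and 0.256 at the ends). An unadjusted p under 0.05 was then found for 2136 (4.97%) and 2286 (5.32%) cytosines of the ends, against 4.93% and 4.91% of all cytosines. Without 1 animal the number of DMCs at the ends was 10 to 24. It was 24 without Tough animal 4 (of 168 over all cytosines) and 19 without Tender animal 7. These were partly other cytosines: only 5 to 10 of the 12 DMCs were among them.

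The 12 DMCs lay on 6 autosomes: 4 on BTA21, 3 on BTA4, 2 on BTA16 and 1 each on BTA5, BTA18 and BTA26. Positions are those of the table, on ARS-UCD1.2. Closest genes, gene parts and CpG islands are those the study assigned to its sites. Each value rests on 13 to 60 scaled reads per animal and cytosine. In 4 of the 12 the groups did not overlap, against 38.8% of all 121 DMCs. For comparison, 0.0965% of all cytosines had groups that did not overlap. When each animal was left out in turn, the DMCs at 119084615, 119094423 and 69707697 met both thresholds in 12 of 12 fits. Those at 69512647 and 80061957 met them in 10, 80315014 in 7 and 119634112 in 6. The DMC at 69747631 met them in 4 fits, those at 119075640, 51777152 and 65763739 in 3, and that at 69392202 in 2, so these 5 calls were lost in most fits.

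The 3 DMCs of BTA4 lay within 20 kb of each other at PTPRN2, which encodes a phosphatase-like membrane protein of secretory vesicles, and they did not move one way. At 119075640, in an intron and a CpG island, Tough animals had a lowest value of 0%, a median of 43.8% and a highest of 87.0%, and Tender animals 83.8%, 100% and 100%. The pooled difference was 55.3 percentage points (adjusted p = 0.0471, logistic model), and the Tough animals alone spanned most of the scale. At 119084615, in an intron and a shore of an island, Tough animals had 77.3%, 93.6% and 100% and Tender animals 28.6%, 51.8% and 64.7%, with no overlap. The pooled difference was -44.3 (adjusted p = 6.52e-05, logistic model), the smallest adjusted p of the 12. The 3 other cytosines within 50 bp were also lower in Tender, with differences from -21.8 to -13.1. At 119094423, in a CpG island and called intergenic, Tough animals had 89.3%, 100% and 100% and Tender animals 43.6%, 49.0% and 97.4%. The pooled difference was -39.0 (adjusted p = 0.00988, logistic model). Here 5 Tender animals lay between 43.6% and 56% and the sixth was at the level of Tough. At this and at the first site, the cytosines within 50 bp differed by less than 5 percentage points. The first site was also at 5% or less in some animal and at 95% or more in another. Whether the animals differed in DNA sequence at these or the other DMCs was not tested.

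The 4 DMCs of BTA21 lay from 108 to 464 kb before the last covered cytosine. At 69392202, in a shore near AHNAK2, a large scaffold protein gene, Tough animals had 27.3%, 44.7% and 66.7% and Tender animals 59.3%, 68.8% and 84% (pooled difference 26.2, adjusted p = 0.0423, logistic model). It was a DMC in 2 of 12 fits without 1 animal (adjusted p up to 0.129) and not with reads before scaling (adjusted p = 0.0537, logistic model). The cytosine of the same CpG on the opposite strand went the other way, by -12.9. At 69512647, near JAG2, which encodes a Notch ligand, Tough animals had 47.1%, 55.5% and 66.7% and Tender animals 15.4%, 30.8% and 46.7% (pooled difference -27.2, adjusted p = 0.0186, logistic model). The groups did not overlap, the call was lost without Tender animal 9 or Tender animal 10, and the opposite strand differed by -5.72.

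At 69707697, in a CpG island near MTA1, which encodes a subunit of the NuRD chromatin remodelling complex, Tough animals had 18.8%, 38.9% and 44.1% and Tender animals 0%, 2.17% and 17.6% (pooled difference -29.4, adjusted p = 0.0107, logistic model). The groups did not overlap, while the opposite strand differed by 2.44. At 69747631, in an exon and CpG island of CRIP2, a LIM domain protein gene, Tough animals had 5.26%, 15.4% and 26.7% and Tender animals 21.4%, 40.8% and 65.2% (pooled difference 26.8, adjusted p = 0.0374, logistic model). It was a DMC in 4 of 12 fits without 1 animal and not with reads before scaling (adjusted p = 0.0574, logistic model). The opposite strand differed by 8.81 in the same direction. In the gene order of another cattle assembly (NIAB-ARS_B.indTharparkar_mat_pri_1.0), CRIP2, CRIP1, TEDC1 and TMEM121 are the 4 protein-coding genes that follow MTA1 before the end.

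On BTA16, both DMCs were higher in Tender. At 80061957, in an intron and shore of SYT2, which encodes a calcium sensor of synaptic vesicles, Tough animals had 12.5%, 36.0% and 62.5% and Tender animals 55.6%, 66.6% and 77.4% (pooled difference 32.3, adjusted p = 0.0136, logistic model), a call lost without Tough animal 6 or Tender animal 11. At 80315014, in an intronic CpG island assigned to UBE2T, a ubiquitin-conjugating enzyme of DNA repair, and LGR6, a receptor of the Wnt pathway, Tough animals had 45.9%, 56.5% and 64.7% and Tender animals 66.7%, 80.7% and 91.2% (pooled difference 25.8, adjusted p = 0.0127, logistic model). The groups did not overlap, and 5 of the 6 cytosines within 50 bp were also higher in Tender, by 4.98 percentage points on average over the 6.

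The other 3 DMCs stood alone on their autosomes. At 119634112 on BTA5, in a shore near MAPK11, which encodes a p38 kinase, Tough animals had 33.3%, 37.4% and 63.3% and Tender animals 59.5%, 71.8% and 82.1% (pooled difference 29.2, adjusted p = 0.0216, logistic model). At 51777152 on BTA26, in a shore with JAKMIP3 assigned as the closest gene, Tough animals had 34.3%, 43.6% and 56.3%. Tender animals had 48.1%, 71.5% and 87.1% (pooled difference 28.5, adjusted p = 0.0395, logistic model). This cytosine lay 211 kb before the last covered cytosine. In the gene order of the NIAB-ARS_B.indTharparkar_mat_pri_1.0 assembly, 32 protein-coding genes follow JAKMIP3 before the end. Whether JAKMIP3 is the gene closest to this cytosine was not tested. At 65763739 on BTA18, 53.2 kb before the last covered cytosine and between genes, with TRIM28, a corepressor used by zinc finger proteins, as a closest gene, 6 of 6 Tough animals had 100%. The Tender animals had 17.2%, 46.4% and 100%, and 2 of them were at 100% (pooled difference -45.4, adjusted p = 0.0337, logistic model). In an exact permutation test of this cytosine alone the p was 0.0606, and at the other 11 it lay between 0.00216 and 0.00866. These p-values are unadjusted. The cytosines were chosen for their group difference in the same animals, so the values are no separate support for the calls.

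**Figure D5:**
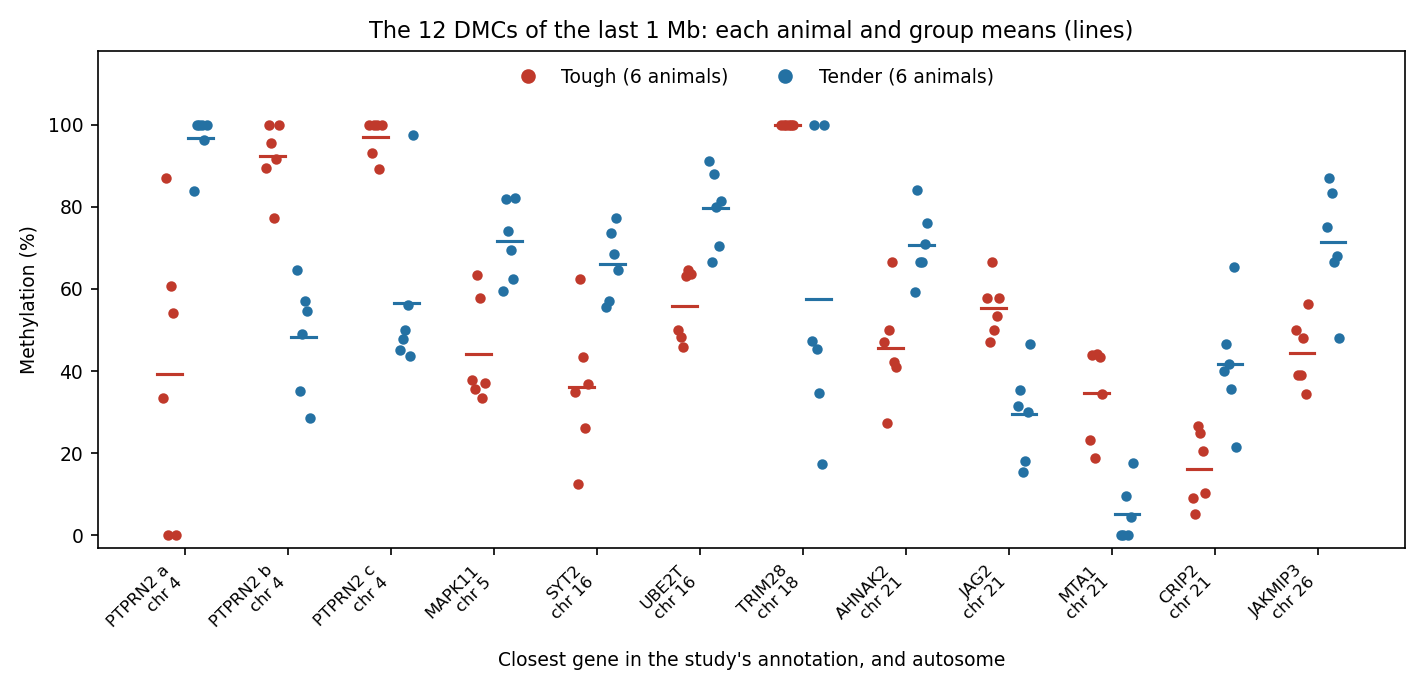
Methylation (%) of each animal at the 12 DMCs of the last 1 Mb, Tough in red and Tender in blue (6 animals each), with lines at the group means. Tender lies above Tough at 7 sites and below at 5, the groups do not overlap at 4, and at the first PTPRN2 site the Tough animals run from 0% to 87.0%.

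Differentially methylated regions (DMRs) were windows of 100 bp that met the same thresholds on summed reads. Of all 193249 windows 42 were DMRs (0.0217%), and 2 of the 11269 windows of the last 1 Mb were (0.0177%), 1 higher in each group, where 0.0186% of all windows were higher in Tender and 0.0031% higher in Tough. The window at 119084601 to 119084700 on BTA4 held 3 cytosines, among them the PTPRN2 DMC at 119084615. Tough animals had 68.2%, 81.6% and 94.5% there and Tender animals 42.4%, 57.7% and 65.1% (pooled difference -26.8, adjusted p = 0.000989, logistic model), with no overlap. The study's annotation calls this window intergenic and the DMC in it intronic. The window at 51777801 to 51777900 on BTA23, in an intron of LOC104969983, held 1 cytosine. This cytosine was not itself a DMC: windows were adjusted over all windows, and cytosines over all cytosines. Tough animals had 22.2%, 34.3% and 44.4% and Tender animals 50%, 58.3% and 75% (pooled difference 26.2, adjusted p = 0.0357, logistic model), again with no overlap. This window was not a DMR with reads before scaling (adjusted p = 0.0601, logistic model) and met the thresholds in 8 of 12 fits without 1 animal, and the PTPRN2 window in 10 of 12. Without 1 animal the number of DMRs at the ends was 0 to 6. It was 0 without Tender animal 11, 4 without Tough animal 1, Tough animal 3 or Tender animal 10, and 6 without Tender animal 9 or Tender animal 12. Over all windows, 81 were DMRs without Tough animal 1 and 66 without Tough animal 3. With the F-test the number of DMRs was 0, with 611 windows of the ends (5.42%) at an unadjusted p under 0.05, against 5.62% of all windows.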

How the data were processed

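RRBS libraries of 12 Nelore steers, 1 per animal, were prepared by the study with MspI and sequenced as single-end reads. Per the labels, reads went through Trim Galore 0.4.1 and Bismark 0.23.0 (genome build ARS-UCD1.2) before methylKit 1.8.1. There the authors required 10 reads per cytosine, dropped coverage beyond its 99.9th percentile, scaled each animal, and retained only positions shared by the 12 animals (635469). The values the authors deposited are therefore scores, scaled read numbers rounded to whole numbers (factors 1 to 1.27), and not raw counts. The planned logistic model was kept because methylKit fits it to such values, and recovered reads before scaling were an alternative.

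Percent methylation is methylated over all scaled reads. Cytosines of the last 1 Mb were averaged per animal and autosome, and autosomes were weighted equally. Regions were compared by exact sign-flip tests and groups by exact permutation tests (924 splits, smallest p = 0.00216), with Benjamini-Hochberg adjustment. Each cytosine, and each 100 bp window, was fitted by logistic regression with McCullagh-Nelder overdispersion and a chi-square test, adjusted over the whole table. Python 3.11.15, numpy 2.4.6, scipy 1.17.1, R 4.3.3 and limma 3.58.1 were used. The code of the tests was also run on simulated data, which sets no bound on false calls in these data. No 2 animals had identical values. Named sites are every DMC and DMR of the last 1 Mb, and named autosomes the 5 with the highest and 5 with the lowest difference and those of extreme density. The members, lists and tests were chosen with earlier results of these data known. Alternatives were other weightings, region lengths, coverage minimums, merged strands, density classes, conversion groups, other tests and leaving out each animal. Promoters, gene lists and the covered share of genomic CpGs were not analysed here, for want of a genome of the same build.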

Additional observations from a re-analysis of the deposited data

Results flagged for a closer look

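At the PTPRN2 cytosine 119075640 on BTA4, Tender animal 7 had 83.8%, apart from the other Tender animals at 96.2% to 100%. At the PTPRN2 cytosine 119094423 on BTA4, Tender animal 12 had 97.4%, while the other Tender animals had 43.6% to 56%. These were 2 of 90 groups tested by Dixon's criterion, which chance alone passes in about 1 of 20.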

How the results depend on the processing

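The higher methylation of the last 1 Mb kept its direction and its side of the threshold in the 25 alternatives run (sign-flip p at the smallest the test can give, 0.000488 with 12 animals and 0.000977 with 11), from 4.48 percentage points in windows with 1 cytosine to 19.3 in windows with 5 or more. The shift between groups stayed above 0 in the 27 alternatives run, from 0.058 within lower conversion to 1.28 with weighting by coverage, and at 0.223 to 0.495 when 1 animal was left out, and passed the permutation test only without Tough animal 4 (0.495). The difference of the shifts of ends and rest never passed. Its sign turned with all cytosines pooled (0.147), with weighting by coverage (0.287) and in windows with 5 or more cytosines (0.139). It also turned without the autosomes under 300 cytosines (0.103), an alternative chosen after seeing the data. Of the fits without 1 animal (-0.0643 to 0.00472), it turned only in that without Tender animal 12 (0.00472). The number of DMCs was 12, of 121 over all cytosines. It became 0 with the F-test and 0 with limma. With no overdispersion correction it was 160 (of 1431), with at least 20 reads 3 (of 24) and with a difference above 10% 34 (of 549). The last 2 Mb held 20 (of 121). Without 1 animal it was 10 to 24, of which 5 to 10 were shared. The total over all cytosines changed as well, for example to 168 without Tough animal 4. With reads before scaling the number of DMCs at the ends was 12 (of 91 over all cytosines), of which 10 were shared. The number of DMRs was 2, of 42 over all windows. It became 0 with the F-test, 16 (of 266) with no overdispersion correction and 13 (of 303) with a difference above 10%. It was 5 (of 42) in the last 2 Mb, and 0 to 6 without 1 animal. With reads before scaling (35 over all windows), as with at least 20 reads (12 over all windows), it was 2, of which 1 was shared. The larger spread at the ends (24 of 29 autosomes) held on 11 of 28 among cytosines below 5% and on 15 of 29 at 20% to 80%. In the other classes the SD of Tough and of Tender was larger at the end on most autosomes. The counts were 20 and 19 of 27 at 5% to 20%, 20 and 23 of 29 at 80% to 90%, and 19 and 20 of 29 above 90%. The overdispersion factor was larger at the end on 14, 9 and 10 autosomes in these classes. Of the named autosomes, the sign turned on BTA1 with each window counted once (0.644), the last 2 Mb (10.6), merged strands (1.71) and 2 to 4 cytosines per window (4.50), on BTA21 with the last 0.5 Mb (-1.51), at least 20 reads (-0.950) and 1 cytosine per window (-1.37), on BTA28 with the last 2 Mb (4.75), at least 20 reads (0.0561) and 2 to 4 cytosines (4.79), on BTA29 with the last 2 Mb (3.12) and 2 to 4 cytosines (2.26), and on BTA11 with 1 cytosine per window (-3.68). BTA1 kept its sign but not its call with weighting by coverage (-0.201). The cause of these changes was not tested, except that the stricter coverage and thresholds by construction keep fewer or more sites. The alternative on the covered share of genomic CpGs and the promoter analysis were not run. No paired analysis of the groups was made, because they hold different animals and the labels give no pairs. Single cytosines rest on a median of 24 to 32 scaled reads per animal.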
